A study of Tursiops truncatus with 31 samples.

Results

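SPP1, ANXA5 and SESN3 are 3 of the 9610 genes measured in the blood of 4 bottlenose dolphins (Tursiops truncatus), followed here for the size of their differences between animals against their changes over the months of 1 year. They were picked by name because their spread between animals was large against their spread over months in these same libraries. The differences between animals given below therefore describe the choice and carry no test. The identifiers in the files are ENSTTRG00000015211 for SPP1, ENSTTRG00000000810 for ANXA5 and ENSTTRG00000013000 for SESN3, each with 1 row in both genome tables.

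Blood was drawn at about monthly intervals from 4 healthy dolphins under human care, to ask how the blood transcriptome varies with season, sex and individual. The animals were the females Keo, aged 12 years (9 libraries), and Pele, aged 28 years (7 libraries), and the males Hua, aged 5 years (8 libraries), and Kai, aged 17 years (7 libraries). All 31 libraries came from whole blood kept in PAXgene tubes, a stabilising reagent, and from RNA depleted of haemoglobin transcripts by an RNase H digestion. Summer was July to September (8 libraries) and winter December and February (8 libraries), and 15 libraries came from other months. Each combination of age and sex was 1 animal, so individual, age and sex cannot be told apart, and libraries of 1 animal are repeated draws and not separate animals. Expression is given as FPKM, fragments scaled to the length of the transcript and the mapped fragments of each library, and differences are on the log2(FPKM + 1) scale, which understates changes of genes with low values.

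As known from human and mouse, SPP1 encodes osteopontin, a secreted phosphoprotein that binds integrins and CD44 and is made by macrophages, activated T cells and bone cells. ANXA5 encodes annexin A5, a cytosolic protein that binds phosphatidylserine in the presence of calcium, and for that reason is widely used as a probe of dying cells. SESN3 encodes sestrin 3, a stress-inducible protein and a target of FOXO transcription factors, which restrains the growth kinase complex mTORC1 through the GATOR complexes. Blood is a mixture of cells, and in these whole-blood libraries fewer cells of a type and less RNA per cell cannot be told apart.

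The 4 animals fell into a high and a low pair for SPP1. In Keo the 9 libraries ran from 6.80 to 21.25 FPKM, with a median of 13.2. In Pele the 7 libraries ran from 0 to 3.15, with a median of 2.3. In Hua the 8 libraries ran from 0 to 4.28, with a median of 0.965, and in Kai the 7 libraries ran from 9.85 to 27.0, with a median of 15.0. Every library of Keo and Kai lay above every library of Pele and Hua, while the ranges within each pair overlapped. The lowest library of the high pair (6.80 FPKM, Keo in August) was 1.59 times the highest of the low pair (4.28 FPKM, Hua in February). SPP1 was the only gene of the 9610 with all libraries of Keo and Kai above all others (0.0104% of genes), a separation that the choice of the gene had already used.

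SPP1 was listed at 0 in 6 libraries, 4 of Hua (April, May, August and October) and 2 of Pele (August and December). A listed 0 need not mean that the transcript was missing, since HPRT1, a gene used by nearly every cell, was also listed at 0 in 3 libraries. In the other Hua libraries SPP1 stood at 4.28 FPKM in February, 2.39 in March, 2.25 in July and 1.93 in December, so months with and without signal alternated. Between the means of Keo and Pele, the neighbours on either side of the gap, the difference was 2.59 on the log2 scale, or 3.37 times the pooled SD within animals. Kai exceeded Keo by 0.19 and Pele exceeded Hua by 0.28, both under 1 such SD.

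ANXA5 was set apart in 1 animal. The 9 libraries of Keo ran from 294 to 826 FPKM, with a median of 460 (459.86), and averaged 515 ± 179 (SD, n = 9). Pele had 426 to 815 FPKM, with a median of 569 and a mean of 567 ± 128 (SD, n = 7). Hua had 114 to 211 FPKM, with a median of 152 and a mean of 157 ± 31.8 (SD, n = 8), and Kai had 327 to 764 FPKM, with a median of 383 and a mean of 496 ± 195 (SD, n = 7). All 8 libraries of Hua lay below all 23 libraries of the other animals, whose ranges overlapped each other. The lowest of those 23 libraries (294 FPKM, Keo in April) was 1.40 times the highest of Hua (211 FPKM, April). No other gene of the 9610 had all of Hua's libraries below all others (1 gene, 0.0104%), which again is what the gene was chosen for. On the log2 scale Hua lay 1.58 below Kai, or 3.70 pooled SDs, whereas Pele exceeded Keo by 0.18 and Keo exceeded Kai by 0.07, each under 1 SD.

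SESN3 formed a ladder and not 2 groups. Keo's 9 libraries ran from 29.6 to 52.3 FPKM, with a median of 34.3 and a mean of 36.4 ± 6.88 (SD, n = 9). Pele's 7 libraries ran from 7.45 to 19.1, with a median of 13.1 and a mean of 12.7 ± 3.68 (SD, n = 7). Hua's 8 libraries ran from 37.45 to 75.7, with a median of 61.4 and a mean of 58.2 ± 14.0 (SD, n = 8), and Kai's 7 libraries ran from 10.5 to 37.2, with a median of 23.4 and a mean of 24.9 ± 8.65 (SD, n = 7). From high to low the order was Hua, Keo, Kai and Pele, which is also the order of the animals from youngest to oldest, with 1 animal at each age. Neighbours on that ladder differed by 0.64, 0.59 and 0.89 on the log2 scale, or 1.61, 1.5 and 2.23 pooled SDs, and their ranges overlapped in each case. Ranges did not overlap between Hua and Pele (lowest of Hua 1.96 times the highest of Pele), between Keo and Pele (1.55 times) or, narrowly, between Hua and Kai (1.01 times).

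**Figure D1:**
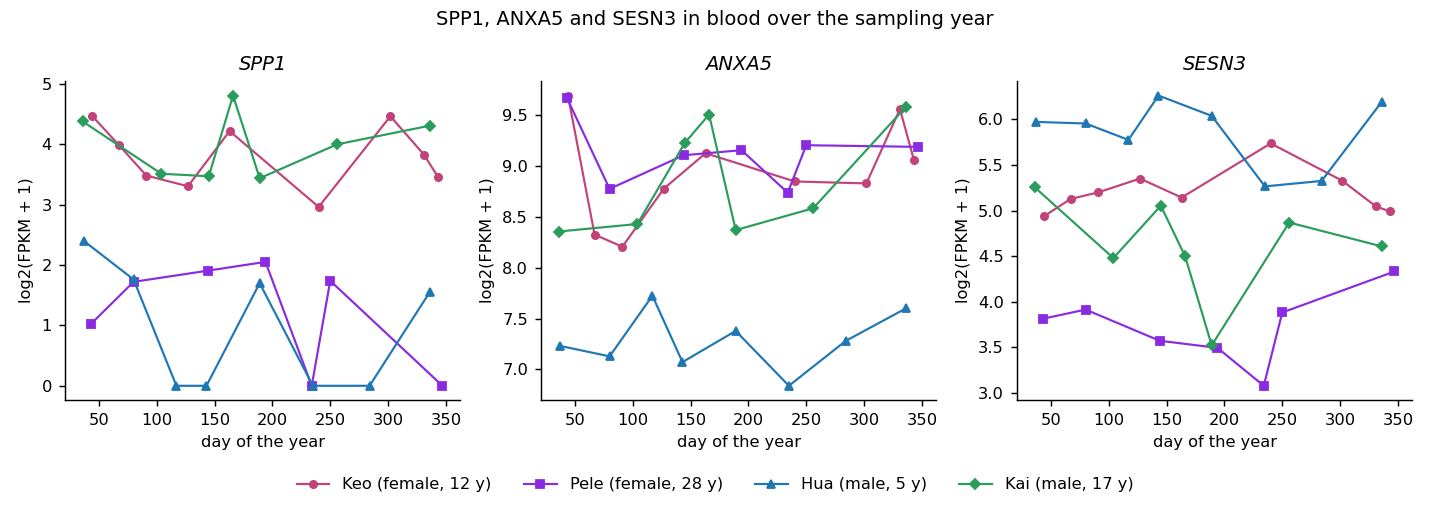
SPP1, ANXA5 and SESN3 in each library against the day of the year on which the blood was drawn, as log2(FPKM + 1), with 1 line per animal. Keo and Kai stay above Pele and Hua for SPP1, and Hua stays below the other animals for ANXA5. For SESN3 the line of Keo crosses those of Hua and Kai, while Hua stays above Pele throughout.

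The 3 genes thus separated the animals along different lines. The high SPP1 pair held 1 female and 1 male, and the low ANXA5 animal was 1 of the 2 males. From high to low the SESN3 ladder ran male, female, male and female. As a mean of animal means on the log2 scale, female minus male was 0.05 for SPP1, 0.95 for ANXA5 and −0.76 for SESN3. Median FPKM in females against males was 7.84 against 4.28 for SPP1, 542 against 211 for ANXA5 and 30.2 against 37.45 for SESN3. With 2 animals of each sex, and the members chosen on differences between animals, these values are given without a test.

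Against all genes, the spread between animals was large and the spread over months was not always small. The SD of the 4 animal means was 1.64 for SPP1, 0.85 for ANXA5 and 0.90 for SESN3 on the log2 scale, beside a median of 0.34 over the 9610 genes. The pooled SD within animals was 0.43 for ANXA5 and 0.40 for SESN3, beside a median of 0.67, with 8.52% and 5.42% of genes at or under their values. That low rank held for ANXA5 with Cufflinks (9.86%) and after scaling the libraries (2.91%), but not for SESN3, at 25.4% with Cufflinks (SD 0.48) and 28.4% after scaling (SD 0.46). SPP1 varied more over months than the median gene, with a pooled SD of 0.77 and 63.5% of genes at or under it (68.3% after scaling), but less in the Cufflinks table, at 0.56 and 43.1%. The share of variance lying between animals was 79.6% for SPP1, 77.65% for ANXA5 and 81.05% for SESN3, against a median of 17.45% of all genes, and placed them 4th, 6th and 2nd of 9610. In an F test over the animals with limma, which takes repeated libraries of an animal as its replicates, 988 of 9610 genes (10.3%) passed an adjusted p under 0.05 (7.35% after scaling the libraries and 9.24% of 8030 genes in the Cufflinks table). SPP1, ANXA5 and SESN3 were 3rd, 4th and 6th by that F, which shares its contrast with the choice of the genes and from which nothing is read here. The leading gene with a symbol was LAG3, an inhibitory receptor of activated lymphocytes (94.5% of variance between animals), followed by SPP1, ANXA5, the T cell and NK cell chemokine CCL5 (76.2%) and SESN3, with the adenylate kinases AK8 (77.5%) and AK1 (72.95%), the efflux pump ABCB1 (79.4%) and the tetraspanin TSPAN33 (75.1%) among the first 10.

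**Figure D2:**
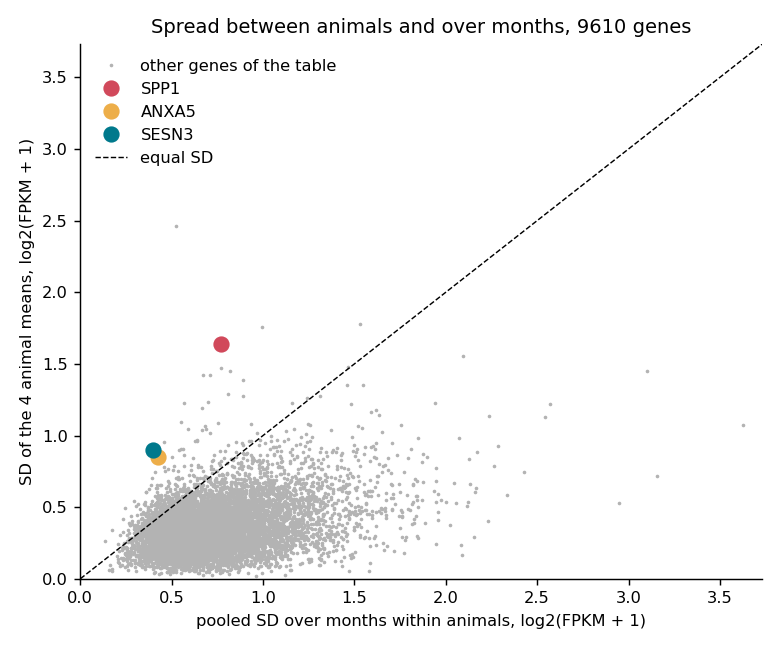
SD of the 4 animal means against the pooled SD over months within animals, both on the log2(FPKM + 1) scale, with 1 point for each of 9610 genes and a dashed line where both are equal. SPP1 (0.77 within, 1.64 between), ANXA5 (0.43 and 0.85) and SESN3 (0.40 and 0.90) lie above the line at the upper edge of the cloud.

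The authors had also quantified the same reads with Cufflinks, which gave lower FPKM for these genes but kept the pattern of each. Over all 31 libraries the median was 2.59 FPKM with Cufflinks and 6.80 with RSEM for SPP1, 195 and 437 for ANXA5, and 10.1 and 32.2 for SESN3. The order of the animals by mean was the same for each gene in both tables. SPP1 again separated Keo and Kai (lowest library 2.59 FPKM) from Pele and Hua (highest 1.76), with 7 libraries listed at 0, and 6 of them the same as before. ANXA5 again separated Hua (highest 99.3 FPKM) from the other animals (lowest 147). For SESN3, 1 of 8 Hua libraries came under the highest of Kai, so that pair then overlapped, and the share of variance between animals was 70.4%, with 80.4% for SPP1 and 80.2% for ANXA5. The reads are shared, so the second table repeats the quantification and not the experiment.

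**Figure D3:**
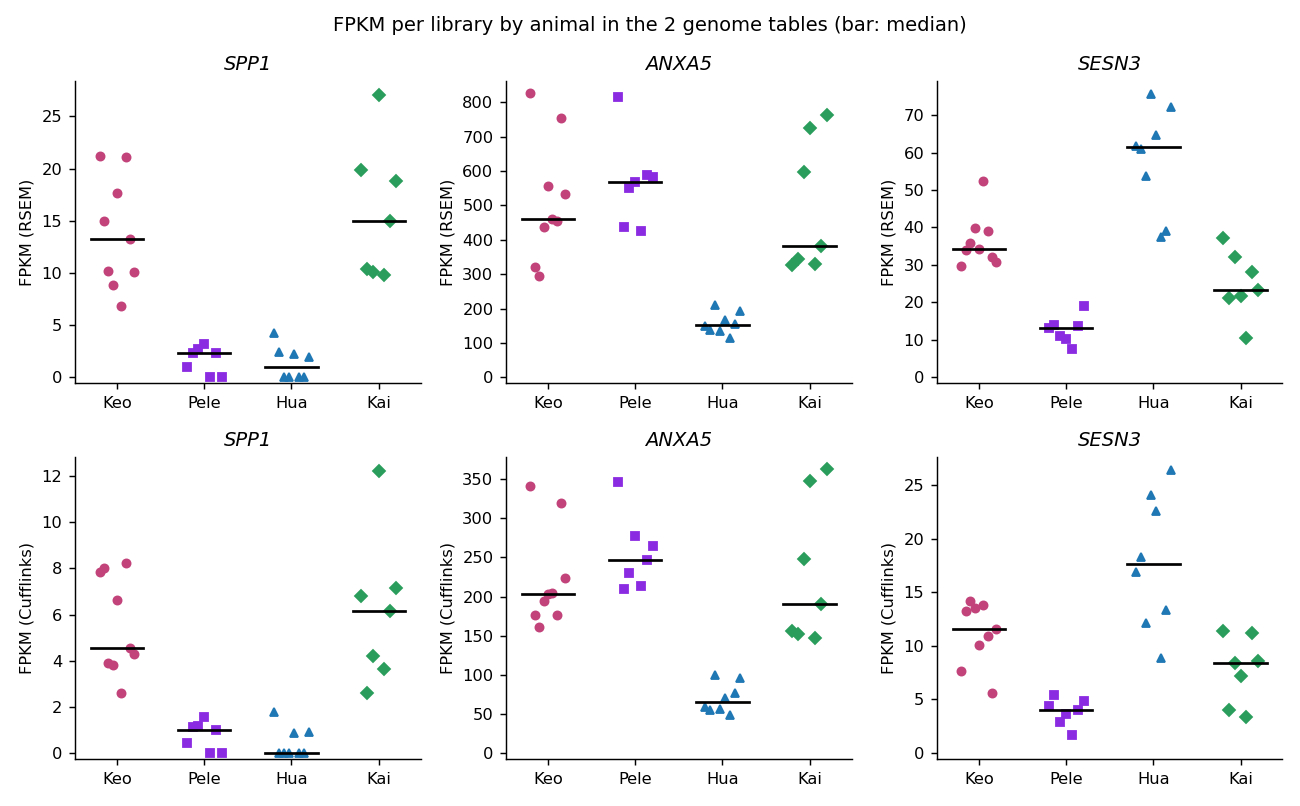
FPKM of SPP1, ANXA5 and SESN3 in each library, by animal, with RSEM values in the upper row and Cufflinks values in the lower, and a bar at the median of each animal. In both rows Keo and Kai stand above Pele and Hua for SPP1, and Hua stands below the others for ANXA5.

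The libraries differed in composition, with median-ratio size factors of the deposited FPKM from 0.59 to 1.64. Dividing by these factors gave a share of variance between animals of 80.4% for SPP1 and 79.7% for SESN3, raised the spread of SESN3 over months from a pooled SD of 0.40 to 0.46, and lowered the spread of ANXA5 over months from a pooled SD of 0.43 to 0.27, so that 88.3% of its variance lay between animals. After scaling, Kai and not Pele was highest for ANXA5 (medians of 406 FPKM in Keo, 468 in Pele, 162 in Hua and 554 in Kai). The separation of Hua held, with the lowest library of the others at 341 FPKM and the highest of Hua at 229. SPP1 still separated its pairs (5.05 FPKM against 4.25), while SESN3 overlapped between Hua and Kai in 5 of 8 Hua libraries.

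Season was the contrast that the choice of the genes had not used directly, though it favoured genes that change little over months. In 8 summer libraries ANXA5 had 114, 404 and 589 FPKM (lowest, median and highest), against 149, 558 and 826 FPKM in 8 winter libraries. Summer and winter overlapped widely, but the mean of each animal was lower in summer, by −0.53 in Keo, −0.40 in Pele, −0.31 in Hua and −0.49 in Kai on the log2 scale. Those means rest on 1 to 3 summer and 2 winter libraries per animal, with a single summer library in Keo. In limma, with animal as a term, summer minus winter was −0.42 ± 0.19 (SE), an unadjusted p of 0.0425 that did not pass after Benjamini-Hochberg adjustment over all genes (adjusted p = 0.988). An exact permutation test that exchanged seasons within animals gave a mean difference of −0.43 and an unadjusted p of 0.0519, two-sided, or 0.156 adjusted over the 3 genes. Median-ratio size factors, with which ANXA5 moved, were 0.645 to 1.36 (median 1.08) in summer and 0.59 to 1.64 (median 1.23) in winter. With the libraries scaled, the difference was −0.33 ± 0.15 and did not pass (limma adjusted p = 0.793), and that of Pele shrank to −0.08, with −0.53 in Keo, −0.49 in Hua and −0.35 in Kai.

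SPP1 and SESN3 differed less evenly between the seasons. SPP1 had 0, 2.74 and 15.0 FPKM in summer (lowest, median and highest), against 0, 7.17 and 21.25 FPKM in winter. Its mean was lower in summer in Keo (−1.01), Hua (−1.13) and Kai (−0.62) but higher in Pele (0.75), and the limma difference was −0.39 ± 0.42 (adjusted p = 0.988, exact permutation p = 0.251 unadjusted and 0.376 adjusted). It ranged from −0.14 without Hua to −0.91 without Pele, with neither past the threshold.

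SESN3 had 7.45, 21.0 and 64.7 FPKM in summer and 13.1, 30.2 and 72.1 FPKM in winter, and after scaling the order of the medians turned, with 23.5 FPKM in summer and 22.5 in winter. It was lower in summer in Pele (−0.59), Hua (−0.43) and Kai (−0.74) and higher in Keo (0.77), where summer was the single August library. That library, at 52.3 FPKM, was Keo's highest in the deposited RSEM table, though neither with Cufflinks nor after scaling, while August gave the lowest SESN3 value of both Pele and Hua. The limma difference was −0.35 ± 0.28 (adjusted p = 0.988, exact permutation p = 0.395 before and after adjustment), and −0.58 without Keo. Over all 9610 genes limma called 0 in summer against winter (0%), with 338 (3.52%) at an unadjusted p under 0.05 and a median difference of −0.05. These tests count repeated libraries of the same 4 animals, so they speak of those animals.

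**Figure D4:**
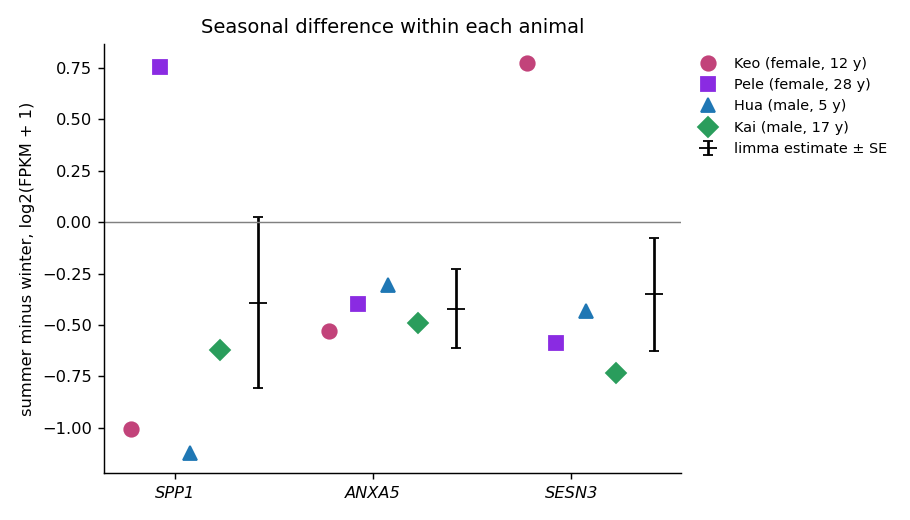
Summer minus winter for SPP1, ANXA5 and SESN3 within each animal on the log2(FPKM + 1) scale, with the limma estimate and its SE in black. All 4 animals are below 0 for ANXA5 (−0.31 to −0.53), whereas Pele for SPP1 (0.75) and Keo for SESN3 (0.77) are above it.

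No annual rhythm or drift was called for the 3 genes either. A cosinor with an annual period and animal as a term gave an amplitude of 0.26 for SPP1, 0.13 for ANXA5 and 0.17 for SESN3 on the log2 scale, with limma adjusted p of 0.797, 0.816 and 0.746, beside a median amplitude of 0.24 over all genes. A straight line over the year gave −0.18 ± 0.14 per 100 days for SPP1 (adjusted p = 0.472), 0.09 ± 0.08 for ANXA5 (adjusted p = 0.501) and −0.03 ± 0.08 for SESN3 (adjusted p = 0.872), beside a median of 0.12. Limma called 0 of 9610 genes (0%) in both, with 955 (9.94%) and 1701 (17.7%) at an unadjusted p under 0.05.

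Of the genes related to SPP1, 1 receptor and 1 processing gene passed the F test over animals, and neither passed after scaling. SPP1 was the 1 measured gene of the 5 listed members of the SIBLING family of bone and tooth matrix proteins. Among 6 measured osteopontin receptors, CD44, the hyaluronan receptor of leukocytes, passed the F test over animals, and 5 integrin genes did not (adjusted p = 0.00758 for CD44). CD44 had medians of 258 FPKM in Keo, 295 in Pele, 175 in Hua and 162 in Kai, an order unlike that of SPP1, and its adjusted p after scaling was 0.253. ITGA5 (28.0% of variance between animals, adjusted p = 0.102) and ITGB1 (5.57%) are subunits of integrins that bind matrix. MMP9, a neutrophil protease that cleaves osteopontin, passed with unscaled libraries (medians of 519 FPKM in Keo, 581 in Pele, 321 in Hua and 391 in Kai, adjusted p = 0.00545), and its adjusted p after scaling was 0.134. FAM20C, the kinase that phosphorylates osteopontin, did not pass (25.0%, adjusted p = 0.13). The 1 of 6 receptors and 1 of 2 processing genes stand beside 10.3% of all genes. Median shares of variance between animals were 21.55% for the receptors and 38.2% for the processing genes, beside 17.45% for all genes.

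Among the other annexins, 1 of 6 measured passed, beside 10.3% of all genes. ANXA4, a membrane-binding annexin best known in epithelia, had medians of 12.6 FPKM in Keo, 24.2 in Pele, 4.5 in Hua and 17.5 in Kai, with 45.0% of its variance between animals (limma adjusted p = 0.0106, and 0.00986 after scaling). ANXA1, an anti-inflammatory annexin of myeloid cells, had 1070 (1069.58), 1166, 844 and 1020 (1019.65) FPKM in the same order of animals, with 10.9% between animals. ANXA2, a partner of S100A10, had 30.1%, ANXA7 28.8%, ANXA6 34.1% and ANXA3, a neutrophil annexin, 9.48%, and none of these passed (adjusted p = 0.0812, 0.112, 0.0593 and 0.574). Hua was lowest for ANXA1, ANXA2 and ANXA7 as well as ANXA4, and Kai was lowest for ANXA3 and ANXA6. The median share of the 6 was 29.4%, beside 17.45% for all genes.

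Genes that expose or read phosphatidylserine, the lipid that annexin A5 binds, did not pass in any case. Of 7 measured genes for its exposure and flipping, 0 passed, from the flippase ATP8A1 (27.5% between animals, medians of 8.87 FPKM in Keo, 7.14 in Pele, 3.22 in Hua and 6.78 in Kai) and the scramblase family member PLSCR4 (23.8%) to the flippase subunit TMEM30A (2.15%). Of 4 measured genes for its recognition, 0 passed, with STAB1, a scavenger receptor, at 35.1%, PROS1, the bridging protein S, at 21.9% and MFGE8, a bridging protein of phagocytes, at 15.9%. The list medians were 10.7% and 19.8%, beside 17.45% for all genes.

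The other sestrins did not share the ladder of SESN3. SESN1, a p53 target, had medians of 10.4 FPKM in Keo, 8.28 in Pele, 12.3 in Hua and 6.34 in Kai, with 21.7% of variance between animals (limma adjusted p = 0.167). SESN2, the leucine sensor, had 4.10, 2.60, 1.77 and 3.04 FPKM in the same order of animals, with 5.70% between animals (adjusted p = 0.732). Hua was highest for SESN1, as for SESN3, but lowest for SESN2.

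**Figure D5:**
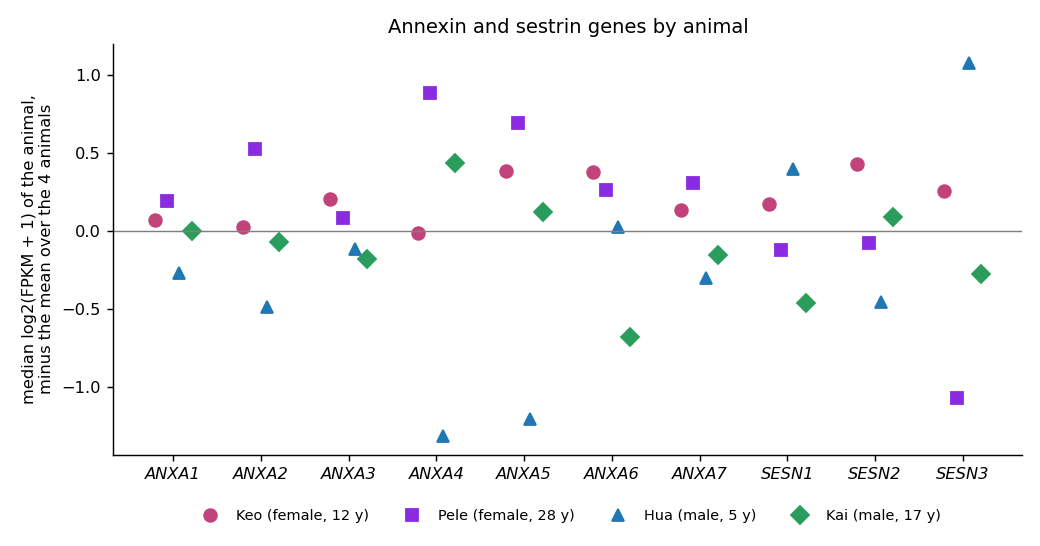
Median log2(FPKM + 1) of each animal minus the mean over the 4 animals for the measured annexin and sestrin genes. Hua lies lowest for ANXA5 and ANXA4 and highest for SESN3, and the spread of the other genes is narrower.

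Downstream of the sestrins, 1 of 15 measured GATOR and amino acid sensing genes passed, beside 10.3% of all genes. It was KPTN, a subunit of the KICSTOR complex that holds GATOR1 at the lysosome, with medians of 9.15 FPKM in Keo, 10.6 in Pele, 7.70 in Hua and 3.51 in Kai (54.2% between animals, adjusted p = 0.0099, and 0.0394 after scaling). WDR59 of GATOR2 (34.5%) and SEH1L, shared with the nuclear pore (2.53%), did not pass. Of 13 mTORC1 and Rag GTPase genes 0 passed, among them the mTORC1 inhibitor TSC2 (39.2%), the Ragulator subunit LAMTOR2 (33.8%) and the mTORC1 substrate AKT1S1 (6.50%). Of 6 AMPK genes 0 passed, with the regulatory subunits PRKAG2 (25.1%) and PRKAG1 (23.2%) ahead and the upstream kinase CAMKK2 (8.23%) last. After scaling, LAMTOR5, a Ragulator subunit (adjusted p = 0.0275), and PRKAA1, a catalytic subunit of AMPK (adjusted p = 0.0226), passed, and these 2 are named for that result.

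FOXO factors and their targets, the group to which SESN3 belongs, had 3 of 17 other measured genes past the F test. CCR7, the lymph node homing receptor of naive T cells, had medians of 53.6 FPKM in Keo, 30.1 in Pele, 58.5 in Hua and 27.8 in Kai (45.6% between animals, adjusted p = 0.00842, and 0.0104 after scaling). It put Hua and Keo above Pele and Kai, as SESN3 did. PIK3IP1, an inhibitor of PI3 kinase, had 8.91, 7.79, 9.81 and 1.85 FPKM in the same order of animals (42.9%, adjusted p = 0.0138, and 0.00687 after scaling). After scaling 2 of the 17 passed. CCNG2, a cyclin induced by FOXO factors, stood at the low end (7.32%). Of 11 stress partners of the sestrins 1 passed, the red cell peroxidase PRDX2 (418, 562, 686 and 579 FPKM in Keo, Pele, Hua and Kai, adjusted p = 0.0205). KEAP1, the NRF2 adaptor, did not pass (33.7%), nor did the mitochondrial peroxidase PRDX3 (2.93%). The 3 of 17 and 1 of 11 again stand beside 10.3% of all genes. In none of these lists did a gene pass for season, cosinor or trend.

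Markers of blood cell types also differed between the animals, along lines that partly matched those of the 3 genes. Eosinophil and basophil markers (5 of 13 listed genes measured) had scaled log2 means of 4.28 ± 0.35 in Keo, 3.85 ± 0.39 in Pele, 4.02 ± 0.55 in Hua and 4.72 ± 0.26 in Kai (SD over libraries). Keo and Kai thus had the highest list means, as for SPP1, but the 5 markers did not share 1 order. By unscaled medians, GATA2 and MS4A2 were highest in Keo and Kai. FCER1A was higher in Hua (396 FPKM) than in Keo (369), and EPX was higher in Hua (6.585) than in Kai (4.99). IL5RA was highest in Pele (20.6 FPKM). The summed level of the 5 markers was 176 to 914 FPKM in Keo, 157 to 562 in Pele, 291 to 572 in Hua and 280.35 to 842 in Kai, and 0 of the 5 passed the F test (1 after scaling, FCER1A, adjusted p = 0.026). The counts of markers past that test stand beside 10.3% of all genes, or 7.35% after scaling. Monocyte markers (10 of 13 measured) had means of 5.88 ± 0.21 in Keo, 6.09 ± 0.35 in Pele, 5.52 ± 0.20 in Hua and 6.26 ± 0.26 in Kai, lowest in Hua as for ANXA5, with 4 of the 10 past the F test with and without scaling. Their summed level was 12171 to 37762 FPKM in Keo, 16050.5 to 42283 in Pele, 14206 to 30481 in Hua and 9018 to 29256 in Kai.

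Neutrophil markers (8 of 18 measured, 7.82 ± 0.46 in Keo, 7.60 ± 0.45 in Pele, 7.21 ± 0.44 in Hua and 7.41 ± 0.42 in Kai) and platelet markers (7 of 15 measured, 3.33 ± 0.62, 3.57 ± 0.53, 2.96 ± 0.52 and 3.45 ± 0.76 in the same order of animals) were also lowest in Hua. The summed neutrophil level was 5233 to 16279 FPKM in Keo, 5224 to 11739 in Pele, 3751 to 8175 in Hua and 2407 to 6470 (6469.95) in Kai. The summed platelet level was 67.9 to 202 FPKM in Keo, 82.8 to 257 in Pele, 43.8 to 88.5 in Hua and 36.9 to 149 in Kai. Of the neutrophil markers 5 of 8 passed the F test, but 1 after scaling, and of the platelet markers 1 of 7 passed in both. With animal means subtracted from scaled values over the 31 libraries, which share the scaling, ANXA5 had an r of 0.43 with the platelet list, −0.52 with the T cell list and 0.0028 with the monocyte list.

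B cell markers (11 of 13 measured) ran the other way, with means of 4.03 ± 0.20 in Keo, 3.89 ± 0.28 in Pele, 4.54 ± 0.19 in Hua and 3.12 ± 0.36 in Kai, highest in Hua as for SESN3 but lowest in Kai, and 9 of the 11 passed the F test (8 after scaling). Their summed level was 209 to 634 FPKM in Keo, 187 to 639 in Pele, 426 to 968 in Hua and 78.1 to 218 in Kai. By unscaled medians, MS4A1 and FCRLA were highest in Pele, CD22 and POU2AF1 in Keo, and the other measured B cell markers in Hua. FCRLA had a median of 0 FPKM in Hua, its lowest. Erythroid markers (14 of 17 measured) had means of 7.13 ± 0.65 in Keo, 6.87 ± 0.39 in Pele, 7.58 ± 0.29 in Hua and 8.05 ± 0.46 in Kai, lowest in Pele as for SESN3 but highest in Kai, and 2 of 14 passed (6 after scaling). HBB, HBM, SLC4A1 and CA1 had their lowest unscaled medians in Keo, CA2 and GATA1 in Hua, and the other measured erythroid markers in Pele. The summed erythroid level was 61755 to 347370.3 FPKM in Keo, 61323 to 235999 in Pele, 125836 to 351466 in Hua and 150795 to 333998 in Kai. On average that sum was mostly HBB (mean 147503 FPKM), a globin that the depletion targeted, as it did HBA and HBM. All 3 globins also enter the list means, and differences in depletion between libraries were not tested. Over months, with animal means subtracted as above, SESN3 moved most closely with the erythroid list (r = 0.62), and r was 0.02 for the B cell list. Of the T cell markers 5 of 17 passed (3 after scaling), and of the cytotoxic and NK cell markers 7 of 12 (7 after scaling). No measured marker was listed at 0 in over 15 of the 31 libraries. The part of these cell types in the levels of SPP1, ANXA5 and SESN3 was not tested.

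Other genes were ranked by their likeness to each of the 3. By Pearson's r of log2(FPKM + 1) over the 31 libraries of 4 animals, a measure of likeness given with no test, the nearest to SPP1 were CREG1 (0.73), a secreted lysosomal glycoprotein, ANG (0.73), the ribonuclease angiogenin, JAKMIP1 (0.70), TM4SF5 (0.66) and NWD1 (0.64). CREG1 had medians of 192 FPKM in Keo, 140 (139.58) in Pele, 116 in Hua and 264 in Kai, and ANG 146 in Keo, 90.7 in Pele, 84.6 in Hua and 233 in Kai, both with the pairs of SPP1. The nearest to ANXA5 were LGALS3 (0.85), the lectin galectin 3 of macrophages, with 1356, 1344, 604 and 811 FPKM in Keo, Pele, Hua and Kai, then CYSTM1 (0.84), RNPEP (0.83), MOGAT1 (0.83) and CYFIP1 (0.82). For each of these 5 genes Hua had the lowest median.

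The nearest to SESN3 were FIS1 (0.78), a mitochondrial fission protein, with 575, 533, 779 and 519 FPKM in Keo, Pele, Hua and Kai, then CCNDBP1 (0.73), GHITM (0.68), R3HDM4 (0.65) and RPS20 (0.63). By medians only R3HDM4 kept the order of the SESN3 ladder. FIS1 was lowest in Kai, and RPS20 was highest in Kai (4440 FPKM, against 4406 in Hua). CCNDBP1 and GHITM were higher in Kai than in Keo. With each animal's mean subtracted, which leaves differences between months and in library composition, other genes came first. These were MAP2K6 (0.61), CSNK2A2 (0.59) and MMP14 (0.56) for SPP1, RHOA (0.90), MYL12A (0.90) and BTK (0.90) for ANXA5, and TBPL1 (0.76), USP14 (0.74) and LARS (0.71) for SESN3. For ANXA5 the 3 values after scaling were 0.74, 0.69 and 0.75.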

How the data were processed

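Whole-blood RNA-seq of 4 dolphins (31 libraries) was used. Reads had been trimmed with Trimmomatic by the authors and aligned to turTru1, the Ensembl dolphin genome, with Bowtie2 2.2.4 or TopHat2 2.3.13. The deposited values are FPKM per gene, from RSEM 1.2.18 (9610 genes, 8865 with a symbol) and from Cufflinks 2.2.0 (8030 genes), and the authors kept genes whose mean FPKM reached 1 and, in the RSEM table, whose FPKM exceeded 0 in a share of 0.5 or more of the libraries. Cufflinks values served as an alternative. Read totals by library are not given in the sources used here. No counting interval was therefore computed.

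Samples were grouped by animal, sex and sampling month from the labels. Two-sided tests on log2(FPKM + 1) used limma 3.58.1 (R 4.3.3) with a mean-variance trend. P-values were adjusted by Benjamini-Hochberg over the whole table, and genes with an adjusted p under 0.05 were called. Animal was a fixed term, which the study did not use, and fits without it were an alternative. Exact permutation tests (enumerated with numpy 2.4.6) exchanged seasons within animals in all 1080 arrangements, with a smallest possible p of 0.000926, for the 3 genes. Their p-values were adjusted by Benjamini-Hochberg over the 3 genes. The limma fits were also run on simulated data, with noise drawn independently for each gene and library. The outcome is not reported here, and nothing is read from it. The share of variance between animals is the between-animal part of the sum of squares on the log2 scale.

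Other alternatives were a pseudocount of 0.1, genes above 0 in all libraries (6105), median-ratio scaling, and leaving out each animal or library. The members and the gene lists were chosen with earlier results of these data known. Named genes were the 3 members, the 5 genes nearest to each by r and the 3 nearest within animals, all measured annexins and sestrins, the 2 largest and the 1 smallest share of variance between animals in each other pathway list, and the first 10 of the F test. Genes of the lists that passed after scaling were also named. Not every gene under these rules is reported here. A de novo assembly table, which pairs contigs with protein accessions, was not used, nor were tables of the authors' own comparisons (log2 fold changes and posterior probabilities), blood chemistry, gene coordinates or sequences.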

Additional observations from a re-analysis of the deposited data

Results flagged for a closer look

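Of 12 sets of libraries (3 genes in 4 animals), 2 held a library far from the others. ANXA5 in the February library of Pele stood at 814.59 FPKM, with a gap to the next library equal to 0.581 of the range of the 7 libraries, past Dixon's 95% critical value. SESN3 in the August library of Keo stood at 52.3 FPKM, with a gap of 0.552 of the range of 9 libraries, also past it. Neither was past it in the other versions of the values, which were examined after seeing the data. The gap in Pele was 0.4661 of the range after scaling and 0.507 with Cufflinks, and the August SESN3 value in Keo was below that of April after scaling (38.8 and 49.1 FPKM) and with Cufflinks (13.8 and 14.2 FPKM). Chance alone flags about 1 in 20 such sets. The August library is the single summer library of Keo, and the February library is 1 of the 2 winter libraries of Pele.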

How the results depend on the processing

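None of the 321 alternative values of the tests on SPP1, ANXA5 and SESN3 (season, cosinor and trend) passed the threshold, with a lowest adjusted p of 0.243. The distance from the highest to the lowest animal was 3.06 for SPP1, 1.84 for ANXA5 and 2.12 for SESN3 on the log2 scale, and leaving out 1 library gave 2.93 to 3.27, 1.75 to 1.90 and 2.01 to 2.22. It was 4.85 for SPP1 with a pseudocount of 0.1, 0.26 for ANXA5 without Hua, and 1.24 and 1.48 for SESN3 without Pele and without Hua. SPP1 has zeros, so genes above 0 in all libraries gave it no value. The trend turned to −0.029 for ANXA5 with median-ratio scaling and to 0.002 for SESN3 without Kai, and ran from −0.071 to 0.0079 for SESN3 without 1 library, crossing 0 without the February library of Kai. Of all genes, the trend called 0 in the deposited table, 5 among genes above 0 in all libraries, 1 after scaling, 4 with Cufflinks, 152 without Hua, and 0 to 20 without 1 library (20 without the December library of Hua). Season and cosinor each called 0 to 1 without 1 library, with 1 without the September library of Pele for season and 1 without the May library of Pele for cosinor. The cause was not tested. The F test over animals called 988 of 9610 genes, 706 after scaling and 742 of 8030 with Cufflinks, chosen as alternatives after seeing the data. Zeros limit SPP1 in Pele and Hua. The labels give no replicate numbers. Seasons were compared within animals, and fits without animal as a term made no call on the 3 genes.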
